A study of Mus musculus with 4 samples.

Results

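The genes described here build and carry the contact between a growing mouse oocyte and the granulosa cells around it. They are 7 of the 17945 genes in the deposited expression table, and they hold 16 of its 48574 transcript models. They were chosen by symbol: the connexins Gja4 and Gja1, the cadherins Cdh1 and Cdh2, and the cytoskeletal genes Myo10, Fscn1 and Daam1. The rule uses the symbols alone, but the members were listed with earlier results of these data known.

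In the follicle, granulosa cells send thin actin-filled projections through the zona pellucida to the oocyte surface, where cadherins hold the membranes together and connexin channels pass small molecules between the cells. Connexin 37, the product of Gja4, is the connexin of the mouse oocyte, whereas connexin 43, the product of Gja1, couples granulosa cells to each other. Myosin X carries cargo to filopodial tips, fascin bundles the actin of filopodia, and the formin DAAM1 nucleates actin filaments; in mouse granulosa cells these gene products have been linked to transzonal projections.

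RNA was sequenced from germinal vesicle oocytes of unprimed mouse females at postnatal day 20, held in meiotic arrest with milrinone. Each oocyte was classified from bright-field images, by a deep learning pipeline, as having a non-surrounded nucleolus (NSN) or a surrounded nucleolus (SN), the SN state being the one in which condensed chromatin rings the nucleolus. There were 2 libraries per class from 15 oocytes per class, 30 in all. The strain, and how the oocytes of a class were shared between its libraries, are not given in the sources used here. All oocytes of both classes had been stripped of cumulus cells by pipetting and treated with Tyrode's solution before lysis, and RNA was captured with oligo(dT), so that tail length as well as transcript number can move a value. Nothing in the labels ties replicates to separate animals, so each p-value refers only to variation among these 4 libraries, and that variation may be technical.

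The libraries held between 32307398 and 37023401 estimated counts, and 3 counts, the floor used here, correspond to 0.0806 to 0.0904 CPM, the count scaled to its library's TMM-adjusted total. The 12 oocyte markers, among them the zona genes, were all present, with summed TPM (transcript abundance allowing for length) of 27016 and 26262 in NSN against 29514 and 27178 in SN. In edgeR's fit all 12 had a higher value in SN, with a median log2 fold change (SN over NSN) of 0.13, and 0 were called. Of all genes with a log2 CPM of 8 to 10, 84.3% were also higher in SN, and of those above 10, 98.4%. DESeq2 called Npm2 as higher in SN. Of 15 granulosa and cumulus markers none was at 0 in every library, and their sum was 230 and 292 TPM in NSN against 226 and 272 TPM in SN, most of it from Serpine2. Summed levels of theca and stroma markers were 4.79 and 5.33 TPM in NSN against 3.66 and 3.85 TPM in SN. Their CPM sums were likewise apart, at 8.19 and 8.8 in NSN against 7.32 and 7.14 in SN. Surface epithelium markers summed to 4.39 and 3.15 TPM in NSN against 1.72 and 2.98 TPM in SN, and the classes overlapped in CPM. Blood, immune and endothelial markers summed to 11.5 and 12.2 TPM in NSN against 13.5 and 17 TPM in SN, and the classes overlapped in CPM. Among the last, 6 were tested, of which 4 were higher and 2 (Tek and Kdr) lower in SN. Tek was at 6.68 and 6.03 CPM in NSN against 3.86 and 4.27 CPM in SN. Pecam1 was at 13.6 and 15.5 CPM in NSN against 13.9 and 16.3 CPM in SN. Lyz2 had 0 and 1 counts in NSN against 27 and 35 in SN, and Hba-a1 had 0 and 0 against 18 and 26. Neither was called in edgeR's fit of all 4 libraries, but both were called as higher in SN under 6 of 13 alternatives; their part in the results was not tested. In such bulk libraries, fewer cells of a type and less RNA per cell cannot be told apart.

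The levels of the 7 genes differed widely in these oocytes. On the TPM scale, which allows for transcript length, Gja4 had a mean level of 795 TPM and ranked 232 among 17923 genes with a value above 0. Cdh1 followed with 20.1 TPM at rank 4069, Daam1 with 12.8 TPM at rank 5038, Myo10 with 10.4 TPM at rank 5496 and Cdh2 with 8.95 TPM at rank 5864. Fscn1, with 1.23 TPM at rank 10185, and Gja1, with 0.868 TPM at rank 10803, closed the order. Neighbours were separated in every library between Gja4 and Cdh1 (a ratio of 33.8 to 49.6), between Cdh1 and Daam1 (1.45 to 1.72) and between Cdh2 and Fscn1 (6.06 to 10.6). The ranges over the 4 libraries overlapped for the other neighbours. Daam1 was nonetheless at or above Myo10 within each of the 4 libraries (a ratio of 1 to 1.46), whereas Myo10 was above Cdh2 in 2 and Fscn1 above Gja1 in 3, so the order of these last pairs varied with the library.

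**Figure D1:**
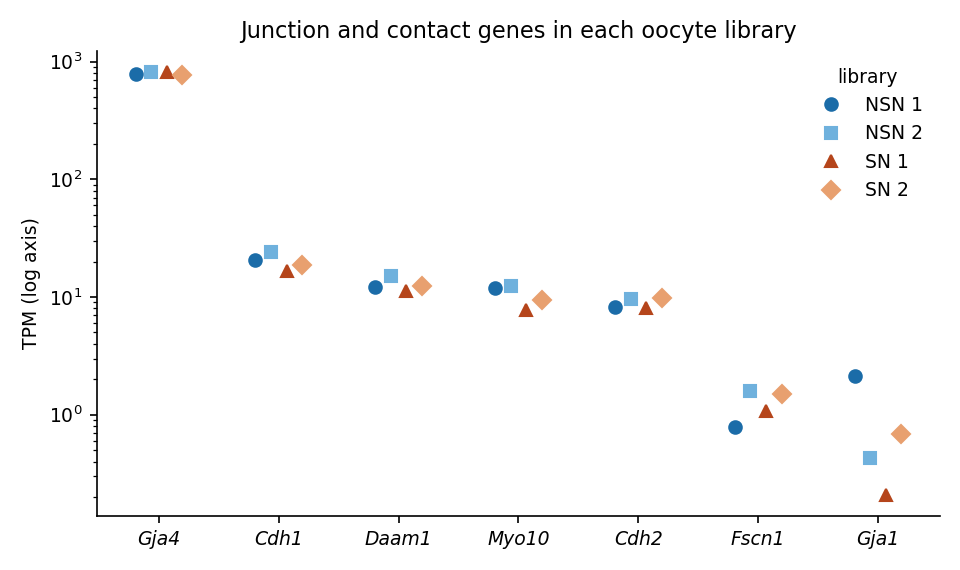
Level of each of the 7 genes in the 4 libraries, in TPM on a log axis, with 1 marker per library. Gja4 stands at 773.10 to 816.85 TPM, far above the rest, and Gja1 has the widest scatter, from 0.21 to 2.15 TPM.

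Comparing the classes asks whether the contact genes differ between oocytes before and after the chromatin transition. At the threshold of an adjusted p of 0.05 in edgeR's quasi-likelihood test, 0 of the 7 genes were called, as were 0 of all 13426 genes tested (0%). By DESeq2, 47 genes were called, none of them among the 7, although DESeq2 gave an adjusted p for Gja4 alone of the 7; limma-voom called 0. At an unadjusted p under 0.05, 1 of the 7, Myo10, was lower in SN, against 7.48% of all genes in either direction 3.46% in that direction and 4.01% higher in SN. Both libraries of one class lay above both of the other for 3 of the 7 (Cdh1, Cdh2 and Myo10), against 39% of all genes. The median log2 fold change (SN over NSN, as throughout) was 0.00 for the 7 genes and -0.011 for all genes tested.

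**Figure D2:**
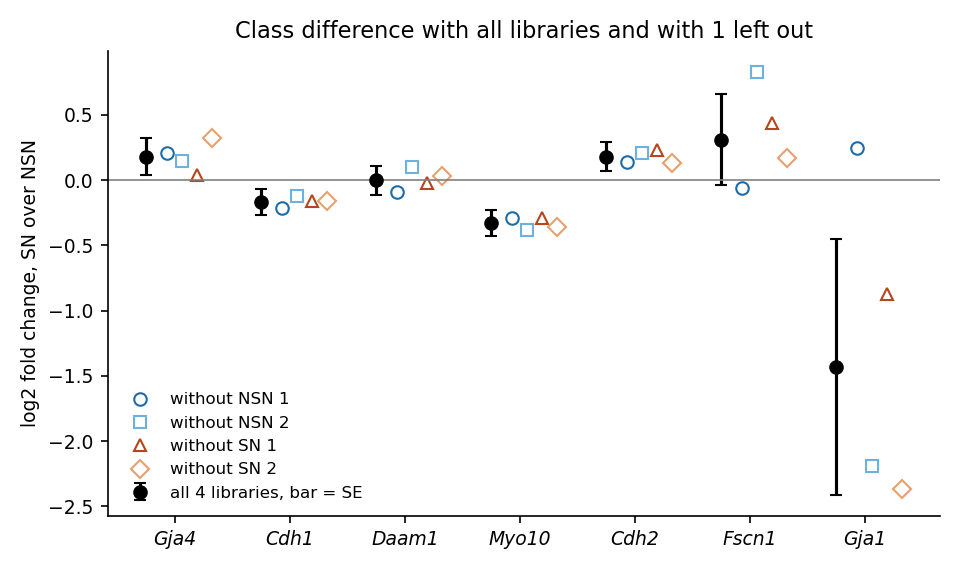
Log2 fold change of SN over NSN for the 7 genes in edgeR's fit, with the standard error (SE) as the bar (filled points) and the value without each library in turn (open markers). The Myo10 values stay between -0.38 and -0.29, while those of Gja1 run from -2.37 to 0.25.

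Gja4 (gene on chr4:127311420-127314039, GRCm38), the oocyte connexin, was among the more abundant transcripts of both classes. Estimated counts were 27738 and 27993 in NSN against 33716 and 31092 in SN. Scaled by depth and TMM factor these were 835 and 800 CPM in NSN against 1016 and 835 CPM in SN. The classes overlapped, with only SN replicate 1 standing above the other 3. The NSN mean was 817 ± 24.9 CPM and the SN mean 925 ± 128 CPM (SD, n = 2 each), a log2 fold change of 0.18 (SE 0.14, edgeR adjusted p = 0.767). Of the 504 genes in the same abundance band (log2 CPM of 8 to 10), 84.3% had a higher value in SN, with a median log2 fold change of 0.13. On the TPM scale the class means of Gja4 were 796 ± 27.6 and 795 ± 30.9 (SD, n = 2 each), and the log2 fold change on log2(TPM + 1) was -0.0019, so that the direction of Gja4 rests on the scaling.

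Gja4 made up nearly all connexin mRNA. Among the 17 connexin genes in the table, it held 97.1% and 97.3% of the summed TPM in NSN against 97.6% and 97.3% in SN. By Euclidean distance of log2(TPM + 1) over the 4 libraries, the genes nearest to Gja4 were Aurkc, an Aurora kinase of germ cells (0.053), Ccndbp1, a cyclin D binding protein (0.116), and Magoh, a core subunit of the exon junction complex (0.128).

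Gja1 (chr10:56377300-56390419), the granulosa connexin, was at a low level, though above the floor of 3 counts in every library, and uneven within each class. Estimated counts were 150 and 29 in NSN against 17 and 54 in SN. In NSN replicate 1 this was 4.52 CPM (95% exact Poisson interval 3.82 to 5.3) and in NSN replicate 2 it was 0.829 CPM (0.555 to 1.19). In SN replicate 1 it was 0.512 CPM (0.298 to 0.82) and in SN replicate 2 it was 1.45 CPM (1.09 to 1.89). NSN replicate 1 stood above the other 3 libraries, with an interval apart from theirs. SN replicate 2 had a higher value than NSN replicate 2, so the classes overlapped, though the intervals of that pair also overlapped. These intervals cover counting error only. The NSN mean was 2.67 ± 2.61 CPM and the SN mean 0.981 ± 0.663 CPM (SD, n = 2 each), a log2 fold change of -1.43 (SE 0.98, edgeR adjusted p = 0.767). Without NSN replicate 1 the log2 fold change was 0.25, the opposite direction, and without SN replicate 2 it was -2.37 with an edgeR adjusted p of 0.000718. That fit has a single SN library, assumed to vary like the NSN libraries, and called 289 of 13832 genes (2.09%). The difference in Gja1 between the classes therefore depends on which library is included.

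Several granulosa markers were also highest in NSN replicate 1. Inha, the alpha subunit of inhibin, was at 11.4 and 4.03 CPM in NSN against 3.71 and 6.5 CPM in SN. For Amh, which encodes anti-Müllerian hormone, the counts were 11 and 2 in NSN against 0 and 7 in SN. Foxl2, a granulosa transcription factor, had 2 counts in NSN replicate 1 and 0 in the other 3 libraries, and Wt1 had 1 count in NSN replicate 2 and 0 in the others. Of the 15 granulosa and cumulus markers, 8 had their highest CPM in NSN replicate 1, against 21.9% of all genes tested. The bases differ, since Amh, Inhbb and Foxl2, which are among the 8, had too few counts to be tested. Inhbb had 6 counts in NSN replicate 1 and 6 in SN replicate 2. The sum of Amh, Inha, Fst and Hsd17b1, most of it from Inha, was 14.8 and 5.09 CPM in NSN against 4.64 and 7.76 CPM in SN. These 4 were grouped after their values were seen, so sharing the order of libraries of Gja1 is no separate evidence. Fshr, left out of this sum, had 5.81 and 2.89 CPM in NSN against 5.64 and 3.14 CPM in SN, another order. The sum of all 15 did not follow the order of Gja1, at 333 and 385 CPM in NSN against 380 and 395 CPM in SN. Serpine2 alone was at 231 to 298 CPM. Of these markers 10 were tested and 0 were called, 0 of them at an unadjusted p under 0.05. Without SN replicate 2, Inha was called like Gja1, with a log2 fold change of -1.05 and an edgeR adjusted p of 0.00813. The part of granulosa RNA in the Gja1 values was not tested.

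**Figure D3:**
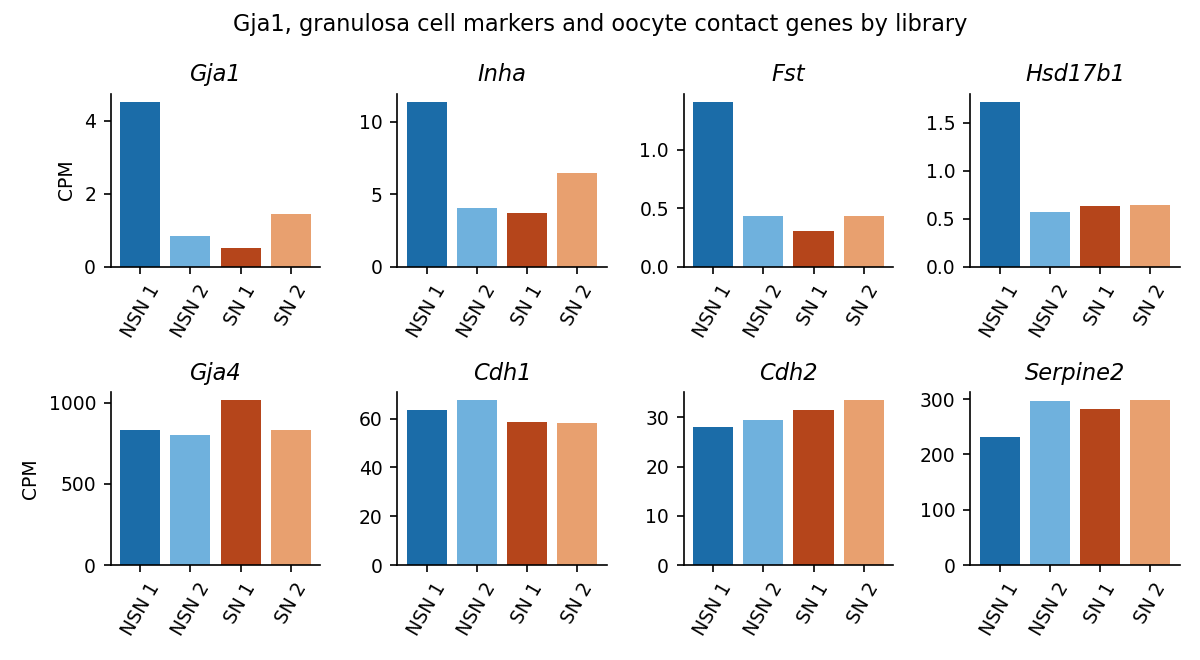
CPM in each of the 4 libraries, 1 bar per library and 1 panel per gene with its own axis from 0, for Gja1, 4 granulosa markers (Inha, Fst, Hsd17b1, Serpine2) and Gja4, Cdh1 and Cdh2. Gja1, Inha, Fst and Hsd17b1 are highest in NSN replicate 1, while Serpine2 and Cdh2 are lowest there.

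The genes nearest to Gja1 by the distance used for Gja4 were Krt32, a hair keratin (0.334), Clic1, an intracellular chloride channel (0.371), and Apoa4, an apolipoprotein (0.439). Their levels in NSN replicate 1, the highest of the 4 as the choice by likeness entails, were 1.56, 2.34 and 2.04 TPM. The TPM of Gja4 exceeded that of Gja1 by a factor of 361 and 1896 in NSN against 3890 and 1137 in SN, so the separation of the connexins held in every library while its size followed Gja1.

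**Figure D4:**
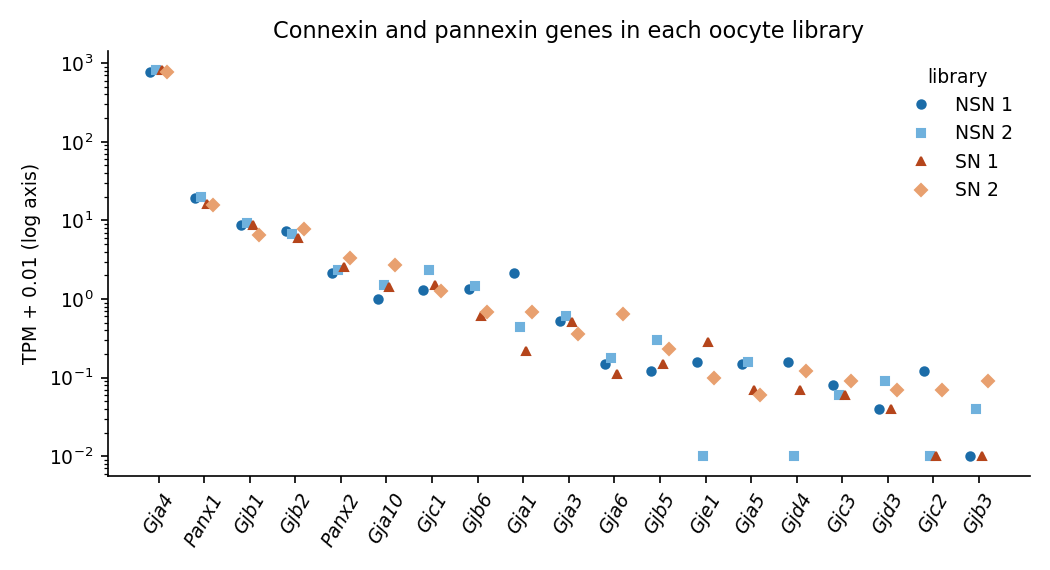
TPM of the 19 connexin and pannexin genes in the 4 libraries, on a log axis with a small constant added so that values listed at 0 fall at its foot, 1 marker per library. Gja4 lies far above all the others, and Gja1 ranges from 0.21 to 2.15 TPM with its highest value in NSN replicate 1.

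The promoters of the connexin pair are shown because these are the genes furthest apart in level. The sequences are the 250 bases before the annotated start, from RefSeq on GRCm38.p6, with motif matches in capitals. The motifs searched, on both strands, were CANNTG (the E-box), TATAAA (the TATA box) and GGGCGG (the GC box); matches shown here do not overlap. Gja4 is chr4:127314040-127314289 on the minus strand and Gja1 is chr10:56377050-56377299 on the plus strand.
Gja4: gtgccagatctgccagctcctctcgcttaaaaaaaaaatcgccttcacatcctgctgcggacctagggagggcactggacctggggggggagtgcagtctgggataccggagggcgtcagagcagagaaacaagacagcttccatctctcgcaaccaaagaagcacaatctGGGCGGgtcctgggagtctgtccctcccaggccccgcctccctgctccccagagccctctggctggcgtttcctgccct
Gja1: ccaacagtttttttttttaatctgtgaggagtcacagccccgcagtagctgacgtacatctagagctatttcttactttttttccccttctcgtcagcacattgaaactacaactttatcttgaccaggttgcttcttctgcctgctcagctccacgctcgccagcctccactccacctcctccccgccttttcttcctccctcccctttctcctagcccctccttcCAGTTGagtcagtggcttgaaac
The Gja4 window had a GC content of 61.2% with 9 CG dinucleotides and 1 GGGCGG at position -79 from the start, a motif held by 32.7% of the 32841 windows of that length. The Gja1 window had a GC content just below the median, with 6 CG dinucleotides and 1 CANNTG at position -23, a motif held by 66.2% of windows. No TATAAA was found in either window, and 12.4% of windows held one. The medians over all windows were a GC content of 52.4% and 6 CG dinucleotides. A match of letters is a description of the window, and binding was not measured.

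The cadherins that hold oocyte and granulosa membranes together differed from each other in level more than either differed between classes. Cdh1 (chr8:106603350-106670247) encodes E-cadherin, a cadherin of the mouse oocyte, and had 63.7 and 67.5 CPM in NSN against 58.6 and 58.3 CPM in SN. Both NSN libraries lay above both SN libraries. The NSN mean was 65.6 ± 2.68 CPM and the SN mean 58.5 ± 0.21 CPM (SD, n = 2 each), a log2 fold change of -0.17 (SE 0.10, edgeR adjusted p = 0.714). Every alternative kept this sign, from -0.34 to -0.12, and none called it. In the authors' deposited table the Cdh1 model had a log2 ratio of -0.18 with an unadjusted p of 0.0392, where 8.36% of models had a p under 0.05.

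Cdh2 (chr18:16588877-16809246) encodes N-cadherin, which is also found on granulosa cells, and had 28.1 and 29.4 CPM in NSN against 31.5 and 33.5 CPM in SN. Both SN libraries lay above both NSN libraries on this scale. The means were 28.8 ± 0.928 and 32.5 ± 1.43 CPM (SD, n = 2 each), a log2 fold change of 0.18 (SE 0.11, edgeR adjusted p = 0.731). On the TPM scale the classes overlapped, with 8.30 and 9.57 TPM in NSN against 8.06 and 9.86 TPM in SN. The ratio of Cdh1 to Cdh2 in TPM was 2.5 and 2.52 in NSN against 2.04 and 1.91 in SN, a ratio within each library that does not depend on its scaling. The 2 genes were already apart in opposite directions in CPM, so this ratio is no separate evidence of a class difference. How often other gene pairs separate the classes was not computed. Cdh2 did not follow Gja1: the Cdh2 to Gja1 ratio in TPM was 3.86 and 22.3 in NSN against 38.4 and 14.5 in SN.

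Myo10 (chr15:25622550-25813673), the myosin of filopodial tips, had the smallest p of the 7 genes. It had 50.4 and 47.5 CPM in NSN against 37.9 and 39.7 CPM in SN. Both NSN libraries lay above both SN libraries. The NSN mean was 49 ± 2.1 CPM and the SN mean 38.8 ± 1.27 CPM (SD, n = 2 each), which is 1.26-fold higher in NSN and a log2 fold change of -0.33 (SE 0.10). The unadjusted p was 0.00783 and the edgeR adjusted p 0.662, so Myo10 did not pass the correction over all genes. Every alternative kept the sign, from -0.51 to -0.29, with adjusted p between 0.262 and 0.907 where one was given, and none called it.

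Most Myo10 mRNA was assigned to a transcript model that encodes a shortened myosin. GENCODE M21 on GRCm38 places the full-length model at 25622525 to 25813673 on chromosome 15, with 41 exons and a coding sequence of 2062 codons. The short model starts 130.4 kb further down, at 25752910, with a first exon of 411 bases that overlaps no exon of the full-length model, and has 21 exons and 1316 codons. The models share 19 exons exactly and end with the same reading frame, so the short product lacks the first 746 codons, 36.2% of the protein. These codons encode the myosin head, the motor domain, and a headless form of this kind has been described in mouse brain. The coding sequences around both start codons show the relation, with the ATG start of each reading frame in capitals; the second stretch of the full-length frame holds the one at which the short frame begins.
Myo10 full-length, coding bases 1 to 60: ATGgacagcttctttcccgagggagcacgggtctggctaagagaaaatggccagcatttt
Myo10 full-length, coding bases 2209 to 2268: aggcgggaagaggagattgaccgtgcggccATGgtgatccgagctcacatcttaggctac
Myo10 short, coding bases 1 to 30: ATGgtgatccgagctcacatcttaggctac
The short coding sequence begins at an in-frame ATG of the longer one, and the bases after it are identical over the stretch shown.

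The short model held 9.98 and 10.51 TPM in NSN against 6.54 and 8.04 TPM in SN. The full-length model held 1.95 and 1.80 TPM in NSN against 1.25 and 1.31 TPM in SN. For both models the NSN libraries lay above the SN libraries on this scale. The share of all models so separated was not computed. On log2(TPM + 1) the median log2 fold change of all genes tested was itself -0.133. The short model's share of Myo10 TPM was 83.0% and 84.3% in NSN against 84.0% and 84.9% in SN, so the classes overlapped in the share. A further, predicted model held 1.0% in NSN replicate 2 and 1.3% in SN replicate 2, and 0.0% in the other libraries. In edgeR's transcript fit, where 0 of 29835 models were called (0%) and 6.47% had an unadjusted p under 0.05, the short model had a log2 fold change of -0.33 (SE 0.10, unadjusted p = 0.0274, adjusted p = 0.696). The full-length model had a log2 fold change of -0.39 (SE 0.19, edgeR adjusted p = 0.942). DESeq2 called the short model with an adjusted p of 0.02, in a fit that called 1471 models (4.93%). The authors' deposited table gave the short model a log2 ratio of -0.33 with an unadjusted p of 0.00203 and the full-length model -0.38 with 0.0839. Reads of the 19 shared exons can come from either model. So can nearly all those of the last exon, which ends at 191.148 kb in the full-length model against 191.146 kb. The authors' software divided such reads between the models. Reads per exon are not used here, so whether uneven coverage along the transcript moves the shares was not tested.

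**Figure D5:**
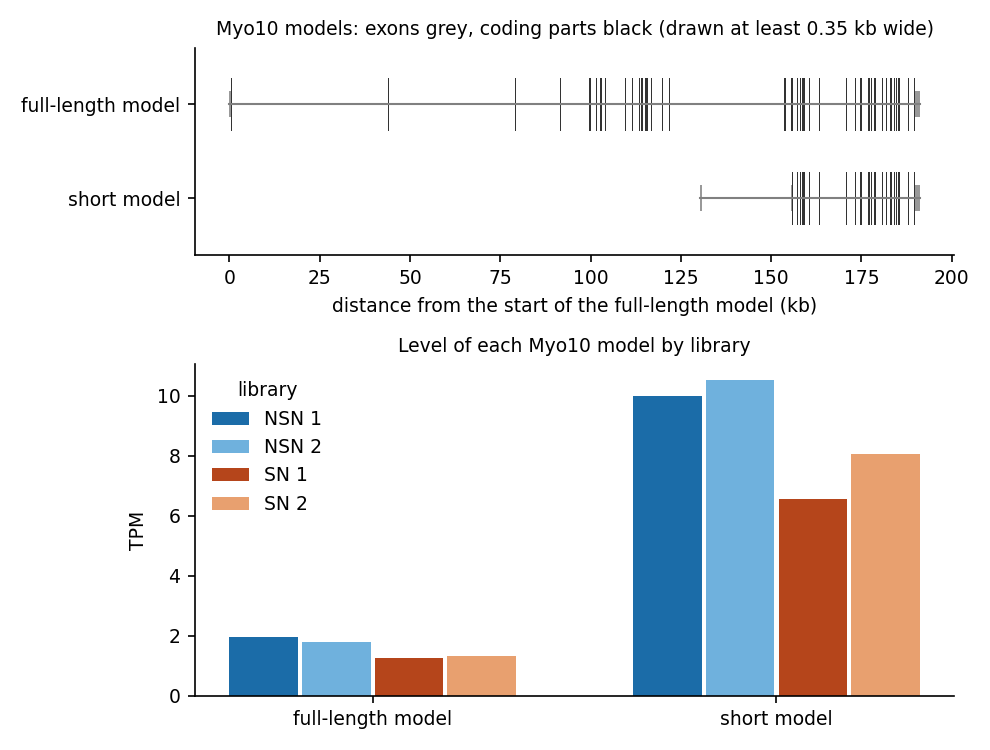
Exon maps of the full-length and short Myo10 models, as distance in kb from the full-length start, above the TPM of each model in the 4 libraries. The short model begins 130.4 kb into the gene and exceeds the full-length model in every library, at 6.54 to 10.51 TPM against 1.25 to 1.95 TPM.

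The RefSeq windows before the Myo10 starts differed in base composition. The upstream window had a GC content of 62.8%, 17 CG dinucleotides and 4 GGGCGG matches. The internal window had a GC content of 46.0%, 4 CG dinucleotides and no GGGCGG. It held 1 TATAAA at position -223 from the RefSeq start, a motif held by 12.4% of windows. This window lies wholly within the first exon of the short model in GENCODE, so it does not precede the GENCODE start of that model.

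Fscn1 (chr5:142960355-142973189), the actin bundler of filopodia, was expressed at a low level. It had 1.39 CPM (95% exact Poisson interval 1.01 to 1.85) and 2.57 CPM (2.07 to 3.16) in NSN, against 2.23 CPM (1.75 to 2.8) and 2.69 CPM (2.18 to 3.27) in SN. NSN replicate 1 was lowest and the classes overlapped. The means were 1.98 ± 0.839 and 2.46 ± 0.322 CPM (SD, n = 2 each), a log2 fold change of 0.31 (SE 0.35, edgeR adjusted p = 0.855). It was -0.06 without NSN replicate 1 and 0.83 without NSN replicate 2. NSN replicate 1, where Gja1 had its highest value, was thus where Fscn1 had its lowest.

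Daam1 (chr12:71830950-71992376), the formin, had the same mean level in both classes within error. It had 50.1 and 57.1 CPM in NSN against 54.7 and 52.6 CPM in SN, and the SN libraries lay between the NSN libraries. The means were 53.6 ± 4.96 and 53.7 ± 1.46 CPM (SD, n = 2 each), a log2 fold change of 0.00 (SE 0.11, edgeR adjusted p = 1). Its curated model held 27.6% and 36.2% of Daam1 TPM in NSN against 40.3% and 30.4% in SN, and a predicted model held most of the rest, at 43.8% to 58.5%. A further predicted model was estimated at 20.2% in NSN replicate 1 and at 0.0% in NSN replicate 2, so the split between models differed within a class. The remaining predicted models held at most 3.8% in any library.

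In each of the 4 wider gene families listed for this contact, 0 genes were called. Of 23 connexins and pannexins listed, 19 were in the table and 11 were tested, with 2 higher and 1 lower in SN at an unadjusted p under 0.05 and a median log2 fold change of -0.10. Over all genes 4.01% were higher and 3.46% lower at that p. Classes were separated in 4 of the 11, against 39% of all genes. After Gja4 the highest levels were those of Panx1, a pannexin channel (17.7 TPM), Gjb1 (8.34 TPM) and Gjb2 (6.9 TPM). Panx2 averaged 4.25 ± 0.00896 CPM in NSN against 6.31 ± 0.61 CPM in SN (SD, n = 2 each), a log2 fold change of 0.57 (SE 0.21, edgeR adjusted p = 0.662). Gjb6 had 1.55 ± 0.0159 and 0.81 ± 0.00576 CPM (SD, n = 2 each), a log2 fold change of -0.94 (SE 0.41, unadjusted p = 0.0422 in edgeR). The remaining gene of these 3 was Gja10, a connexin, named after its value was seen, with a log2 fold change of 0.88 (SE 0.39, unadjusted p = 0.045 in edgeR).

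Of 24 cadherins, catenins and nectins, 23 were in the table and 21 were tested, with 0 higher and 3 lower in SN at an unadjusted p under 0.05 (3.46% of all genes were lower) and a median of 0.01. Classes were separated in 8 of the 21, against 39% of all genes. The highest levels beside Cdh1 and Cdh2 were those of Nectin3, a nectin adhesion receptor (62.9 TPM), Ctnnb1, beta-catenin (49.9 TPM), and Ctnna3, an alpha-catenin (31 TPM). Nectin2 averaged 3.82 ± 0.224 CPM in NSN against 2.3 ± 0.476 CPM in SN (SD, n = 2 each), a log2 fold change of -0.73 (SE 0.28, unadjusted p = 0.022 in edgeR). Afdn, afadin, which links nectins to actin, had 92.2 ± 2.15 and 79.6 ± 2.71 CPM (SD, n = 2 each), a log2 fold change of -0.21 (SE 0.09, unadjusted p = 0.0404 in edgeR). The remaining gene of the 3 was Jup, plakoglobin, named after its value was seen, with a log2 fold change of -0.47 (SE 0.21, unadjusted p = 0.0484 in edgeR). Both NSN libraries of Afdn lay above both SN libraries, as for Cdh1, and neither gene was called.

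Of 24 filopodia and formin genes, 22 were in the table and 20 were tested, with 0 higher and 2 lower in SN (Myo10 and Fmnl2) at an unadjusted p under 0.05, where 3.46% of all genes were lower, and a median of -0.03; classes were separated in 11, against 39% of all genes. The highest levels were those of Cdc42, the GTPase of filopodia (267 TPM), Baiap2l1, an I-BAR protein (105 TPM), and Fmnl3, a formin (40.6 TPM). Fmnl2, a formin, averaged 9.78 ± 0.427 CPM in NSN against 6.59 ± 1.73 CPM in SN (SD, n = 2 each), a log2 fold change of -0.57 (SE 0.21, edgeR adjusted p = 0.662), and without SN replicate 2 it was -0.86 with an edgeR adjusted p of 0.0226, in the fit with 1 SN library that called 2.09% of all genes. Diaph3, another formin, had 62.5 ± 0.575 and 54.2 ± 0.982 CPM (SD, n = 2 each), a log2 fold change of -0.21 (SE 0.10, edgeR adjusted p = 0.665).

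Of 10 junction scaffolds and membrane linkers, all were in the table and 8 were tested, with 0 at an unadjusted p under 0.05, a median of -0.00 and separated classes in 3, against 39% of all genes. Rdx, radixin, which ties membrane proteins to cortical actin, was the most abundant at 713 TPM, followed by the scaffold Dlg1 at 6.64 TPM and Tjp1, the ZO-1 scaffold that binds connexins, at 4.9 TPM. Tjp1 had a log2 fold change of -0.10 (SE 0.12, edgeR adjusted p = 0.87).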

How the data were processed

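Poly(A) RNA of 4 oocyte libraries, 2 classified NSN and 2 SN, was analysed from the authors' table of transcript models. The deposited values include estimated counts, per the file headers and the submitters' processing notes, which name HISAT2, Bowtie2, RSEM and mm10 without versions or roles; 59.8% of these estimated counts are not whole (tolerance 0.001). The authors' TPM, a scale per length, was used for levels and isoform shares. The authors' FPKM values were not tested, and neither was the deposited signal, a normalized read count scaled by depth. The authors' log2 ratio and unadjusted p-value per model were copied for the members; the tool behind them is not given in the sources used here.

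Estimated counts were summed per gene ID and rounded. Genes passing filterByExpr were scaled by TMM and compared by class with the robust quasi-likelihood test of edgeR 4.0.16 in R 4.3.3, with Benjamini-Hochberg adjustment over all 13426 genes and a threshold of 0.05; 29835 transcript models were fitted likewise. CPM is relative to the TMM-scaled total. The standard error of an edgeR log2 fold change was derived from the test, as its absolute value over the square root of the quasi-likelihood F statistic. All 7 members passed the filter. An exact permutation test of 2 against 2 libraries cannot give a two-sided p below 0.333, so none was used for single values. Counting intervals are exact Poisson at 95% and, like the floor of 3 counts, cover counting error only, since PCR copies are not independent molecules.

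The members and the gene lists were chosen with earlier results of these data known. Named genes were all members, models holding at least 1% of a member, the 3 most abundant and the 2 smallest-p genes of each of 4 pathway lists, and the 3 genes nearest to Gja4 and to Gja1, leaving out predicted and numbered models; 1 gene that the rule names is not reported here. Alternatives were DESeq2 1.42.0, limma 3.58.1 (voom, and trend on log2 TPM with a pseudocount of 1 or 0.1), DESeq2 size factors, library size alone, no filter, the replicate number as a block, each library left out and, added after seeing the data, cyclic loess. Gene models came from GENCODE M21 and promoter windows from RefSeq, both on GRCm38, the assembly that mm10 names; Cdh1 and Cdh2 promoters were not used here.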

Additional observations from a re-analysis of the deposited data

How the results depend on the processing

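No gene passed in the comparison of all genes, and 0 passed with voom, DESeq2 size factors or cyclic loess. DESeq2 called 47 genes, library size alone 15, no low-count filter 15, log2(TPM + 1) 10 and log2(TPM + 0.1) 10, and leaving out each library gave 2 to 289, the highest without SN replicate 2. With the replicate number as a block 44 genes were called; same-numbered libraries had deviations correlated at 0.067 over 12497 genes, so the numbers were not taken to pair samples, and no member was called under the block. For transcript models DESeq2 called 1471 and every other alternative run 0. Leaving out each library gave 0 to 1 called among connexins and pannexins (Gja1) and 0 to 1 among filopodia and formin genes (Fmnl2), both without SN replicate 2.

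The 7 genes gave 91 alternative values, of which 73 kept direction and side of the threshold, 6 kept direction with no adjusted p given by DESeq2, 11 reversed and 1, Gja1 without SN replicate 2, newly passed. Gja4 was -0.0019 with either TPM pseudocount and -0.0015 with cyclic loess. Left-out libraries moved Gja1 from -2.37 to 0.25 and Fscn1 from -0.06 to 0.83, with the change of sign in both without NSN replicate 1. Daam1 was -0.15 with library size alone, -0.0017 with no filter, -0.17 and -0.18 with TPM pseudocounts of 1 and 0.1, -0.09 without NSN replicate 1 and -0.02 without SN replicate 1 (-0.09 to 0.1 over the left-out libraries). Library size alone moved the median of all genes to -0.154, log2(TPM + 1) to -0.133 and log2(TPM + 0.1) to -0.179, so the Daam1 values there lie near the shift; the other causes were not tested. Gja1 and Fscn1 rest on 17 to 150 and 46 to 100 counts a library, and their NSN libraries differ beyond counting error.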
